A study of Capra hircus with 3 samples.

Results

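HBAI and HBAII, the alpha globin genes carried under these symbols in the gene table, are described here in fetal goat skin. They are 2 of the 16739 genes listed, were taken by symbol, and were counted in the cells of the E60, E90 and E120 libraries. The pair was chosen by its measured counts over cells and their relation to mitochondrial RNA, so the values below are descriptions and carry no test.

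Dorsal skin of Northern Shaanxi White Cashmere goat fetuses was studied by sequencing the 3′ ends of RNA from single cells in droplets, at embryonic days E60, E90 and E120, the induction, organogenesis and cytodifferentiation stages of hair follicle formation per the design text. Each stage was 1 library of cells pooled from at least 2 fetuses, with no treatment or genotype in the labels. Per the labels' protocol, all skin was rinsed with medium against blood cells before dissociation. Skin of E60 and E90 was dissociated with collagenase IV and pipetting, whereas E120 cells came from follicles dissected by forceps and treated with TrypLE, so stage and preparation cannot be told apart.

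Haemoglobin, the oxygen carrier of red blood cells, is a tetramer of alpha-type and beta-type globin chains, each holding a haem group. Erythroid cells fill with globin messenger RNA as they mature and lose their nucleus, so reticulocytes and young red cells in the blood carry few messages other than globin. ALAS2 is the erythroid enzyme of the first step of haem synthesis, and AHSP is the chaperone of free alpha globin. In droplet data, RNA from broken cells can be captured in any droplet. The share of mitochondrial RNA in a cell is commonly used as a sign of damage, and mature red cells lose their mitochondria.

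The libraries held 6849 cells at E60, 6931 at E90 and 6896 at E120, with 65049552, 30277663 and 93403291 unique molecular identifiers (UMIs, each counting 1 captured transcript). Median depth was 8579, 3714 and 13064 UMIs per cell, and the median mitochondrial share was 4.52%, 11.1% and 5.26%. The E90 library therefore stood apart in both. Between 9 and 13 cell barcodes were shared by each pair of libraries. All intervals given are exact, at 95%, and reflect the error of counting alone. HBAI and HBAII are near-identical paralogs, and how reads that fit both were counted is not given in the sources used here, so the split between them is uncertain.

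At the level of whole libraries, alpha globin was highest at E90, intermediate at E60 and lowest at E120. HBAI had 587 counts per 1000000 UMIs (CPM) at E60 (interval 581 to 593), 2182 at E90 (2165 to 2198) and 193 at E120 (190 to 196). These levels ranked it 198th, 95th and 543rd among all genes. HBAII had 202 CPM at E60 (199 to 206), 710 at E90 (701 to 720) and 58.8 at E120 (57.3 to 60.4). Both genes kept the same order. The sum of both was 3.66-fold higher at E90 than at E60, 11.5-fold lower at E120 than at E90, and 3.13-fold lower at E120 than at E60. On the log2 scale of CPM + 1, the differences of the sum were 1.87, -3.51 and -1.64.

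Both genes passed a 2-fold difference in each of the 3 comparisons, which share libraries. Of all genes tested, 16.7% were at least 2-fold higher at E90 than at E60, 17.5% at least 2-fold lower at E120 than at E90, and 13.0% at least 2-fold lower at E120 than at E60. Scaling by the median of gene ratios shifted the median gene by -0.50 for E90 over E60 and by 0.46 for E120 over E90. With it, higher genes made up 47.6% of the 2-fold differences for E90 over E60 instead of 79.0%, and 48.9% for E120 over E90 instead of 23.6%. The differences of the alpha globin sum under that scaling were 1.35, -3.04 and -1.69, the same directions. The size of the differences depended on the cells entered. Among cells passing a filter of 1000 genes or more and 10% mitochondrial UMIs or less, the log2 difference of E90 over E60 was 1.04 and that of E120 over E60 was -2.32. Without the 6% of cells with most UMIs, which held 8 of the 22 E60 cells rich in alpha globin described below, the same differences were 2.65 and -0.62, and with each cell given the same weight the latter was -0.58.

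Per cell, alpha globin fell into different shapes in the 3 libraries. At E60, 4306 of the 6849 cells had no alpha globin UMI, 1917 had 1, 495 had 2, 80 had 3 and 51 had 4 or more. E120 was alike, with 5147, 1445, 242, 33 and 29 cells in the same classes. E90 was not, with 3123, 1368, 558 and 287 cells at 0 to 3 UMIs and 1595 cells at 4 or more. At least 10 alpha globin UMIs were found in 33 cells of E60 (0.482%), 791 of E90 (11.4%) and 23 of E120 (0.334%). Thus E60 and E120 held a few very rich cells and many cells with single UMIs, whereas E90 also held many cells between them. The plot of UMIs per cell shows a flat stretch beginning near 10 UMIs at E60 and E120, and none there at E90. A gap lay higher at E90, where 11 cells had at least 896 alpha globin UMIs and 10 of them at least 1908, with no cell between these values.

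**Figure D1:**
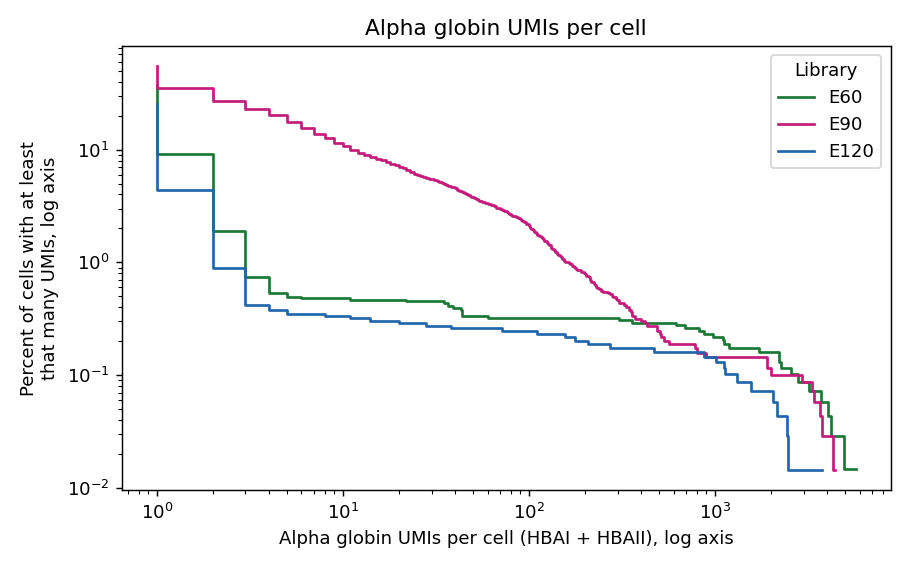
Percent of cells (log axis) with at least a given number of alpha globin UMIs, HBAI plus HBAII (log axis), for the 3 libraries. At 10 UMIs the lines stand at 0.482% for E60, 11.4% for E90 and 0.334% for E120, and the E60 and E120 lines stay nearly flat from there to about 100 UMIs, where 22 and 17 cells remain against 151 at E90.

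Depth differed between the libraries, so each cell was also thinned to 2000 UMIs, and all cells were deep enough for it. Then 9.32% of E60 cells (interval 8.64 to 10.0), 41.9% of E90 cells (40.7 to 43.0) and 5.41% of E120 cells (4.89 to 5.97) had an alpha globin UMI. Unthinned, the shares were 37.1%, 54.9% and 25.4%. For HBAI alone the thinned shares were 7.88%, 38.1% and 4.19%, and for HBAII alone 2.04%, 21.2% and 1.55%. Among cells with under 1% alpha globin, the variance of the thinned count over its mean was 2.71 for E60, 6.34 for E90 and 1.12 for E120, where 1 is the value of random sampling from an even level. The E120 value lay near that of an even level and the E90 value well above it. A few cells held most of the message: the 1% of cells with most alpha globin UMIs held 94.0% of them at E60, 57.2% at E90 and 91.9% at E120.

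Cells in which alpha globin made up at least 1% of the UMIs are called rich cells here. There were 22 at E60 (0.321% of cells, interval 0.201 to 0.486), 308 at E90 (4.44%, 3.97 to 4.96) and 18 at E120 (0.261%, 0.155 to 0.412). They held 92.9%, 79.5% and 90.8% of all alpha globin UMIs of their library. The 1% line fell in a wide gap at E60, between cells with 2.61% and 0.604%, and at E120, between 1.37% and 0.256%. At E90 there was no gap, with 1.01% just inside and 0.994% just outside, and 180 cells held between 0.5% and 1%. The number of rich cells at E90 therefore depends on the line, being 488 at 0.5% and 61 at 5%, against 26 and 20 at E60 and 18 and 10 at E120. Since each library pools fetuses, how many fetuses gave rich cells cannot be seen.

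The richest cells had overlapping globin counts in all stages. In the 10 cells of E60 with most alpha globin UMIs, HBAI ranged from 1590 to 4234 UMIs (median 2498.5) and HBAII from 609 to 1469 (median 969). At E90 the 10 richest cells had 1445 to 3326 HBAI UMIs (median 2516.5) and 417 to 1213 of HBAII (median 798). At E120 they had 799 to 2629 (median 1415.5) and 218 to 1119 (median 398). The 3 ranges overlapped for both genes. As a share of the cell, alpha globin was 17.1% to 24.9% in these cells at E60, 21.1% to 42.0% at E90 and 4.60% to 37.3% at E120.

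Rich cells differed between stages in what else they held. The 10 richest E60 cells had 1143 to 2811 genes detected, and all were above 1000, as was every E60 cell of the table. At E90, 9 of the 10 richest had under 1000 genes, with a median of 548, and the other had 2951. At E120, 4 of the 10 had under 1000 genes. Of all rich cells, 0 of 22, 63 of 308 and 5 of 18 had under 1000 genes. The median mitochondrial share of rich cells was 3.08% for E60, 10.97% for E90 and 3.85% for E120, and in the 10 richest it was 2.26%, 2.43% and 1.53%. The 10 richest E90 cells thus had a lower median share than the 308 rich cells, whose median was near that of their library. These are shares of all UMIs, so globin UMIs lower them, and mitochondrial shares outside globin were not taken.

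The labels name skin, and erythroid cells were checked by other genes of that lineage. ALAS2 had at least 1 UMI in 22 of 22 rich cells of E60, 131 of 308 of E90 and 15 of 18 of E120. Its level there was 1190 CPM (interval 1072 to 1316), 325 CPM (295 to 359) and 668 CPM (565 to 786). In all other cells together it was 0.170 CPM, 4.79 CPM and 0.0966 CPM, found in 11, 126 and 7 cells. ALAS2 and alpha globin were therefore found in the same cells at E60 and E120, and at E90 a sizeable part of ALAS2 lay outside the rich cells: 139 of its 544 UMIs.

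Rich cells hold so much globin that it dilutes every other gene. In the following comparisons of rich with other cells, CPM is therefore taken outside alpha globin and the unnamed gene introduced below. Of the 21 erythroid markers listed, 14 were in the table, and 11, 11 and 9 of them had counts at E60, E90 and E120. Of these, 6, 7 and 4 were at least 2-fold higher in rich cells, where 8.24%, 1.81% and 11.1% of all genes with counts were, and 1, 0 and 0 were at least 2-fold lower. The median log2 difference of the markers was 3.45, 1.81 and 0.65, beside -0.23, -0.09 and -0.17 over all genes. HBM, an alpha-type globin, had 169, 30.3 and 42.0 CPM in rich cells and 0.0155, 0.414 and 0.0107 CPM in the rest. AHSP, the alpha globin chaperone, had 69.7, 11.9 and 12.01 CPM in rich cells, on 14, 13 and 2 UMIs, and 0.572, 1.72 and 1.70 CPM in the rest. BPGM, which makes the allosteric effector of haemoglobin, had no UMI in rich cells of E60 and is the marker counted as lower, and its levels in rich and other cells were 3.67 and 4.59 CPM at E90 and 12.01 and 7.30 CPM at E120.

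Genes of the red cell membrane and of erythroid precursors were near the counting limit. RHAG had no UMI in any cell. SLC4A1, the anion exchanger of the red cell, had 2 UMIs in all, both in rich cells of E60. EPOR, the erythropoietin receptor, had 0 UMIs in rich cells of each stage. In these sums a count of 0 allows up to 14.9 CPM at E60, 2.75 CPM at E90 and 18.0 CPM at E120. That limit is above the level of BPGM in the other cells of E60, 2.02 CPM. GATA1, the erythroid transcription factor, had 4 UMIs in a single rich cell at E60, 1 UMI in rich cells at E90 and 0 at E120. Outside the naming rule and chosen after their values were seen, TRIM58, an erythroid ubiquitin ligase, had 19.9, 9.17 and 6.01 CPM in rich cells on 4, 10 and 1 UMIs, and NFE2, an erythroid and megakaryocyte factor, had 54.7, 13.8 and 6.01 CPM on 11, 15 and 1.

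The remaining haem genes differed less between rich and other cells than ALAS2 did. Of the 11 haem synthesis genes in the table, 5, 3 and 4 were at least 2-fold higher in rich cells, beside the 8.24%, 1.81% and 11.1% of all genes. At least 2-fold lower were 0, 0 and 2 of them, beside 20.1%, 4.65% and 20.3% of all genes. Both of the latter had 0 UMIs in rich cells of E120, which allows up to 18.0 CPM, more than their level in the rest, so no difference was detectable at this depth. ALAD, which acts after ALAS2, had 64.7 CPM in rich cells (interval 34.4 to 111) and 38.7 in the rest at E60, 26.6 and 23.4 at E90, with 60.1 (28.8 to 110) and 49.0 at E120. UROD had 104 (64.7 to 160) and 41.7 CPM at E60, 40.4 and 30.8 at E90, with 60.1 and 48.0 at E120. ALAS1, the form of the first enzyme that most tissues use, had 29.9 (10.96 to 65.0) and 40.0 CPM at E60 and 33.0 and 33.2 at E90. At E120 it had 90.1 and 36.6, with its 15 UMIs in 3 rich cells. FECH, which inserts the iron, was also looked at after the values were seen and had 164 and 25.8 CPM at E60, 54.1 and 23.8 at E90, with 72.1 and 14.5 at E120.

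Of the iron genes, 3 of 4 at E60 and 0 of 4 at E90 and E120 were at least 2-fold higher in rich cells, beside 8.24%, 1.81% and 11.1% of all genes. FTH1, the ferritin heavy chain, had 14498 CPM in rich cells and 6310 in the rest at E60, 4892 and 4658 at E90, with 4643 and 3849 at E120. Without leaving out the globin UMIs the E90 and E120 values turned, to 4286 against 4651 and 3515 against 3849. TFRC, the transferrin receptor by which erythroblasts take up iron, had 29.9 and 7.79 CPM at E60, 43.1 and 27.7 at E90, with 42.0 and 26.0 at E120. SLC40A1, the iron exporter, had 194 and 57.5 CPM at E60, 54.1 and 49.0 at E90, with 24.0 and 29.8 at E120. Of 8 erythroid transcription factors, 2, 1 and 3 were at least 2-fold higher, beside the same shares of all genes, and 0, 0 and 1 at least 2-fold lower. The lower one, MYB, chosen after its value was seen, had 0 UMIs in rich cells of E120 and 3.35 CPM in the rest, under the limit of a count of 0. LMO2 had 114 and 62.5 CPM at E60, 27.5 and 38.2 at E90, with 66.1 and 24.8 at E120, where its 11 UMIs lay in 2 cells.

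Of 6 genes for scavenging free haemoglobin and haem, 1, 0 and 0 were at least 2-fold higher in rich cells and 1, 0 and 1 at least 2-fold lower, beside 8.24%, 1.81% and 11.1% of all genes higher and 20.1%, 4.65% and 20.3% lower. BLVRB, a biliverdin reductase, had 99.5 and 56.7 CPM in rich and other cells at E60, 74.3 and 56.8 at E90, with 84.1 and 51.7 at E120. HMOX1, which degrades haem, was the higher one at E60 with 104 and 45.1 CPM, had 6.42 and 7.86 at E90, and was the lower one at E120 with no UMI against 19.2 CPM. LRP1, an endocytic receptor, was the lower one at E60, with 1 UMI in rich cells and 17.0 CPM in the rest. CD163, the macrophage receptor of haemoglobin bound to haptoglobin, had 4 UMIs in 1 rich cell of E60, 3 UMIs in 2 of E90 and 0 of E120. Across whole libraries HMOX1 had 45.2, 7.76 and 19.2 CPM and CD163 9.70, 2.21 and 0.664, so neither followed the E90 peak of alpha globin.

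Other globins were low. HBBC, a beta-type globin of goats, had 69.7 and 89.0 CPM in rich cells of E60 and E90, against 0.201 and 1.0004 in the rest. Its UMIs came from 3 of the 22 and 19 of the 308 cells. At E120 it had 0 UMIs in the 18 rich cells and 39 elsewhere. HBQ1, theta globin, had 39.8, 4.59 and 0 CPM in rich cells on 8, 5 and 0 UMIs. MB, the myoglobin of muscle, had 0, 3.67 and 0 CPM there. Of the 18 other globin symbols looked for, 5 were in the table.

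Over all cells, the gene most like alpha globin in every library is listed only as ENSCHIG00000023338, with no symbol, and is called the unnamed gene here. Over cells, the Pearson correlation of its log-normalised level with that of the alpha globin sum was 0.455 for E60, 0.828 for E90 and 0.477 for E120, over 6849, 6931 and 6896 cells that share a library and differ in depth. Over cells below 1% it was still first at E60 (0.0972) and E90 (0.732), but at E120 it was not among the first 5, where ACSL4 led at 0.0801. In the 10 richest cells it made up a median of 28.0%, 44.4% and 31.0% of all UMIs, more than alpha globin itself. The next 4 genes at E60 were GPX1, FTH1, OAZ1 and GABARAPL2 at 0.0646 and below, and at E120 they were PRKACB, LAPTM5, ACSL4 and ARHGDIB at 0.0641 and below. At E90 they were the mitochondrial genes COX3 (0.216), COX2 (0.201), ND2 (0.199) and CYTB (0.197), and 10 of the 20 most alike genes were mitochondrial, against 0 at E60 and E120. HBAI and HBAII correlated with each other at 0.609, 0.815 and 0.624 over all cells, and at 0.154, 0.676 and 0.0527 over cells below 1%.

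Markers of other skin cells were present in rich cells. At E60 the dermal list had 8359 CPM outside alpha globin and the unnamed gene in rich cells and 11116 in the rest, with counts in 22 of 22. At E90 the epithelial list had 5245 in rich cells and 5217 in the rest and the dermal list 3200 and 3188, each with counts in 308 of 308. At E120 the list of hair shaft and inner root sheath genes had 15461 and 21307, in 18 of 18. So outside globin, E90 rich cells had nearly the levels of both lists seen in all other cells. Endothelial markers had 249 and 89.6 at E60 (in 3 of 22 cells), 32.1 and 50.3 at E90 and 288 and 68.6 at E120 (in 3 of 18). Platelet and lymphocyte markers had at most 2 UMIs in the rich cells of a stage, and neutrophil markers 0, 19 and 0. The part of these other transcripts in the values above was not tested, and doublets were not called or removed.

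Among cells below 1%, E90 differed more from the other stages than over whole libraries, whereas E60 and E120 differed less from each other. The alpha globin sum was 56.2 CPM at E60 (interval 54.4 to 58.1), 617 CPM at E90 (608 to 626) and 23.3 CPM at E120 (22.3 to 24.3). The E90 level was 10.97-fold that of E60 and 26.5-fold that of E120, and E60 was 2.42-fold above E120. By gene, HBAI had 45.6, 473 and 18.8 CPM and HBAII 10.6, 144 and 4.46. After thinning, 9.02%, 39.2% and 5.16% of these cells had an alpha globin UMI. Free RNA and message made in the cell cannot be told apart in such counts.

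Other erythroid RNA was set against these low alpha globin levels in classes of cells. At E90, cells were split by alpha globin share, and ALAS2 per 1000 alpha globin UMIs was 6.57 (interval 3.50 to 11.2) in cells above 0 and below 0.05%, 9.32 (6.29 to 13.3) between 0.1% and 0.2%, 7.64 (5.48 to 10.4) between 0.5% and 1%, and 5.93 (5.26 to 6.66) at 5% and above. These intervals overlapped while the ALAS2 level itself rose from 1.65 to 1027 CPM. At E60 the ratio was 1.24 (0.339 to 3.19) below 0.05% and 7.40 (6.64 to 8.22) at 5% and above. At E120 it was 0.985 (0.119 to 3.56) and 5.66 (4.62 to 6.85). The ratios below 0.05% at these 2 stages rested on 4 and 2 ALAS2 UMIs. That class takes only cells with at least 1 alpha globin UMI, which by itself lowers its ratio. Cells without one held 7, 8 and 3 ALAS2 UMIs at E60, E90 and E120, which enter no ratio. The lower ratios of the lowest class are therefore not read as a difference from the richest cells. The classes between the lowest and the richest at E60 and E120, of few cells each, showed no steady rise. At E60 the ratio was 0 in the 10 cells from 0.2% to 1% and 40.8 (26.9 to 59.3) in the 2 cells from 2% to 5%. At E120 it was 41.7 (8.59 to 122) in the 3 cells from 0.1% to 0.2% and 34.4 (20.4 to 54.4) in the 3 cells from 1% to 2%.

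The unnamed gene was set against alpha globin in the same classes. Its UMIs per alpha globin UMI at E90 were 1.14 (1.10 to 1.19) below 0.05%, 1.38 (1.35 to 1.41) between 0.5% and 1% and 1.20 (1.19 to 1.21) at 5% and above. At E60 they were 0.611 below 0.05% and 1.39 at 5% and above, and at E120 0.499 and 1.47. In cells without any alpha globin UMI the unnamed gene still had 78.4, 170 and 34.7 CPM at E60, E90 and E120. In the class below 0.05% it had 76.9, 287 and 36.3 CPM. That class takes only cells with an alpha globin UMI, which by itself lowers its ratio. The lower ratios there at E60 and E120 are therefore not read as a difference between classes or stages.

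HBAI was the larger part of the pair in every class of cells. It made up 74.4% of alpha globin UMIs at E60 (interval 74.0 to 74.7), 75.4% at E90 (75.2 to 75.7) and 76.7% at E120 (76.1 to 77.2). In rich cells the shares were 73.8%, 75.1% and 76.2%, and in the rest they were 81.1%, 76.7% and 80.8%. Cells with exactly 1 alpha globin UMI had HBAI as that UMI in 83.6%, 81.1% and 80.5% of cases. Within E90 the share was 80.9% below 0.05%, 80.0% between 0.05% and 0.1%, 76.1% between 0.1% and 0.2% and 75.1% at 5% and above. HBAI thus had a larger share below 1% than in rich cells, by more than counting error in all 3 libraries. The E60 cells between 0.2% and 1% were an exception, with 67.4% in the 6 cells below 0.5% and 61.3% in the 4 cells above. In the 10 richest cells the share ranged from 70.0% to 74.3% at E60, 72.0% to 79.5% at E90 and 70.1% to 80.3% at E120, so single cells differed as well. The plot of E90 cells by alpha globin share shows both ratios.

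**Figure D2:**
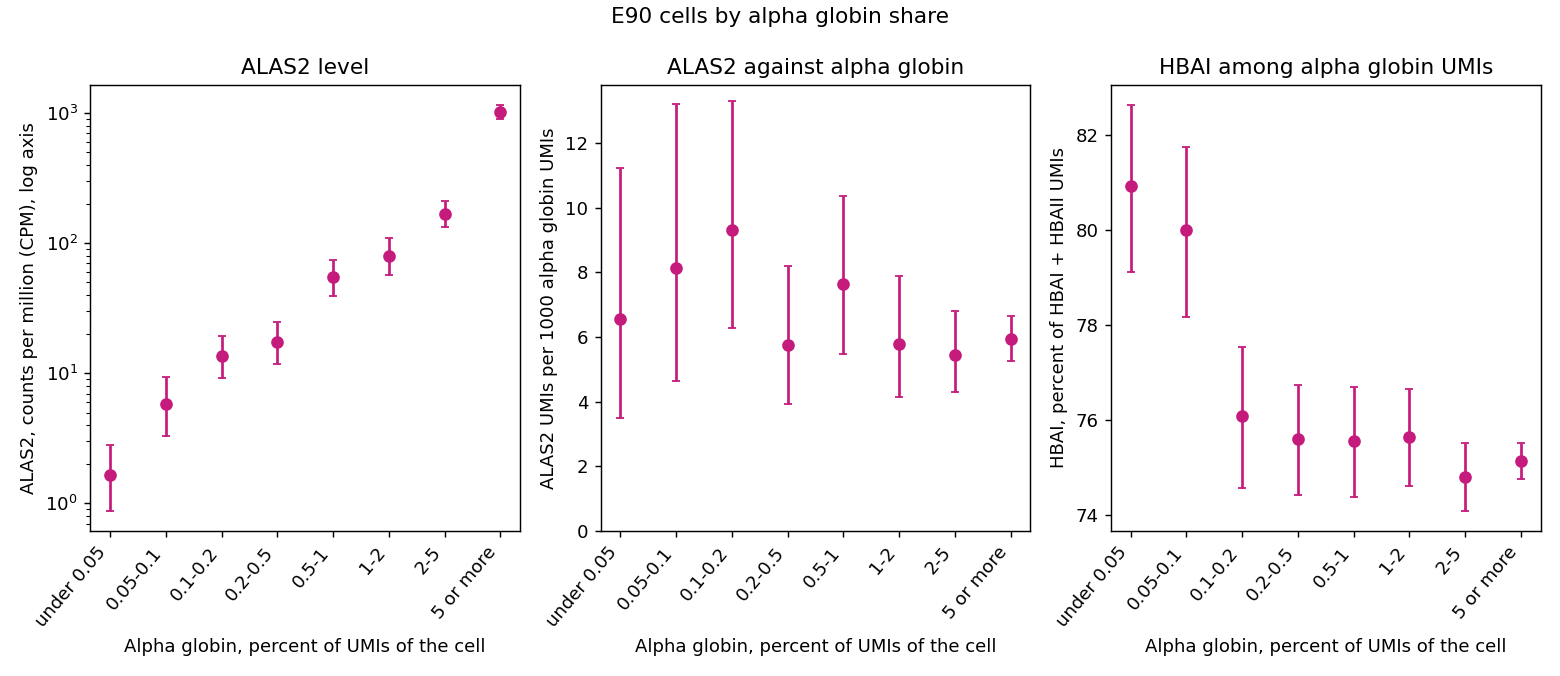
E90 cells with at least 1 alpha globin UMI, in classes of the percent of their UMIs that was alpha globin. Panels show the ALAS2 level (CPM, log axis), ALAS2 UMIs per 1000 alpha globin UMIs, and HBAI as percent of HBAI plus HBAII UMIs. Points are sums over the cells of a class and bars are exact 95% intervals for counting error. ALAS2 rises from 1.65 to 1027 CPM while its ratio to alpha globin stays between 5.45 and 9.32, and HBAI falls from 80.9% to 75.1%.

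The relation to mitochondrial RNA was read by splitting the cells of each library into 5 bins of equal size, from the lowest to the highest share of mitochondrial UMIs. Alpha globin was taken as CPM outside mitochondrial genes, since mitochondrial UMIs otherwise dilute it. Over all cells, the lowest bin had the most alpha globin in each stage: 3362 CPM against 162 in the highest bin at E60, 5715 against 2300 at E90, and 1643 against 272 at E120. These log2 differences of -4.37, -1.31 and -2.59 rested on rich cells, of which the lowest bins held 17 of 22, 61 of 308 and 9 of 18. At E90 that number was near the share of any bin, since the 5 bins were of equal size. Over all cells, Spearman's rho between mitochondrial share and this alpha globin level was 0.034 (E60), 0.285 (E90) and 0.0074 (E120). The lower sums of the highest bins were thus not a fall over cells in general. HBAI and HBAII were each at least 2-fold lower in the highest bin at every stage, as were 0.741%, 8.72% and 11.6% of all genes at E60, E90 and E120.

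Among cells below 1%, the difference between the outer bins turned at E60 and E90. At E90 alpha globin went up through the bins, with 228 (217 to 240), 491 (472 to 511), 734 (710 to 759), 859 (832 to 887) and 1427 CPM (1393 to 1462). The median mitochondrial share of these bins was 6.12%, 8.72%, 11.1%, 14.2% and 19.2%. Each step was larger than counting error. HBAI went from 184 to 1077 CPM and HBAII from 44.2 to 350. After thinning to 1000 UMIs outside mitochondrial genes, 15.9% of cells in the lowest bin (14.0 to 18.0) and 48.4% in the highest (45.7 to 51.1) had an alpha globin UMI. HBAI was 80.6% of alpha globin in the lowest of these bins and 75.5% in the highest.

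The log2 difference between the highest and the lowest E90 bin was 2.54 for HBAI and 2.96 for HBAII, the third and first highest of 15011 genes with counts outside the mitochondrial ones. The unnamed gene was second at 2.68, and ALAS2 was seventh at 1.92, with 10.1 against 1.93 CPM. Among genes with at least 50 CPM, the next after these 3 genes was ENSCHIG00000012599, also without a symbol, at 2.16. Both members were at least 2-fold higher, as were 0.913% of all genes. This contrast is the one the pair was chosen for, so nothing further is read from that share.

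E60 and E120 showed little of this. At E60 the cells below 1% had 49.9, 50.2, 50.0, 54.0 and 91.0 CPM from the lowest to the highest bin, so only the highest stood above the others. The 10 cells with 0.2% to 1% alpha globin weighed on it, since those from 0.2% to 0.5% had a median mitochondrial share of 10.8% and those from 0.5% to 1% one of 11.3%. Without cells at or above 0.2% the log2 difference of the sum fell from 0.85 to 0.23. HBAI differed by 0.75 and HBAII by 1.16, so 1 of 2 was at least 2-fold higher, beside 6.94% of all genes. At E120 the bins had 32.5, 23.8, 22.9, 22.1 and 28.0 CPM, with log2 differences of -0.15 for HBAI and -0.37 for HBAII. There 0 of 2 members were past 2-fold, while 2.74% of all genes were higher and 11.8% lower. Over cells below 1%, Spearman's rho between mitochondrial share and alpha globin CPM outside mitochondrial genes was 0.043 (E60), 0.318 (E90) and 0.010 (E120).

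**Figure D3:**
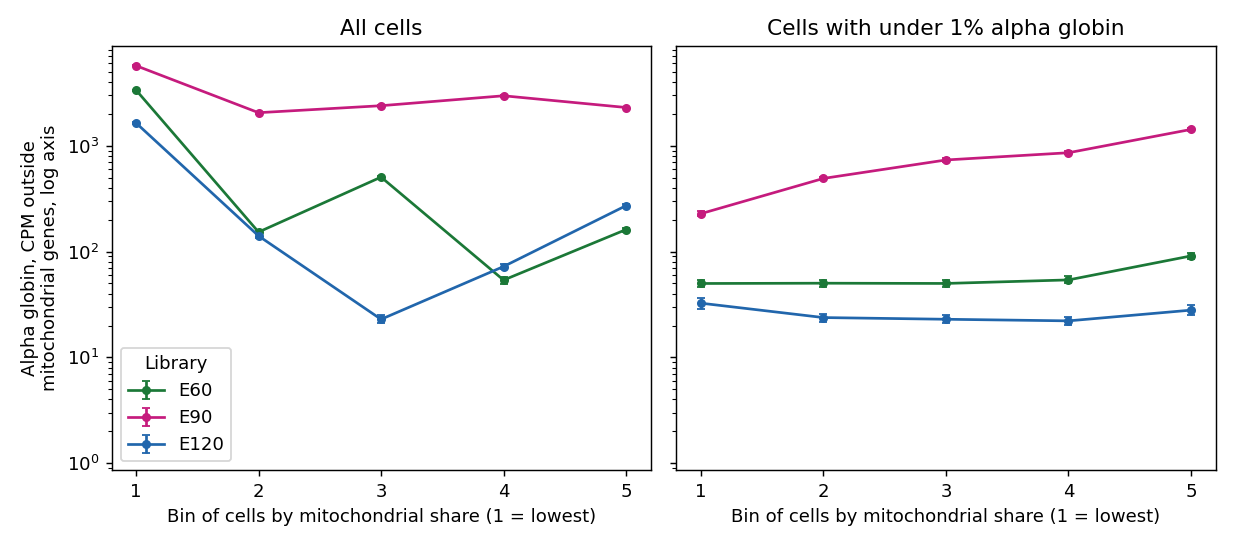
Alpha globin in CPM outside mitochondrial genes (log axis) by bin of cells ordered by mitochondrial share, 1 being the lowest, for all cells (left) and for cells with under 1% alpha globin (right). Points are sums over a bin and bars exact 95% intervals for counting error. On the right, E90 climbs from 228 to 1427 while E120 stays between 22.1 and 32.5 and E60 leaves the level near 50.0 only in the highest bin, at 91.0.

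The E90 relation was present at every depth. Cells below 1% were split into 5 bins by depth, and each of these into 5 bins by mitochondrial share. In the shallowest bin (median 3095 UMIs) alpha globin was 631 CPM outside mitochondrial genes at low and 1249 at high mitochondrial share. The following bins had 400 and 1447, 492 and 1072, and 300 and 1579. In the deepest bin (median 6545 UMIs) the values were 57.9 (48.1 to 69.2) and 1690 (1623 to 1759), the widest difference of the 5. At E60 the highest mitochondrial bin was above the lowest in each depth bin as well, by 117 against 49.9 in the shallowest and 78.6 against 48.2 in the deepest. At E120 the intervals overlapped in all 5 depth bins.

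Alpha globin also varied between groups of cells formed without HBAI and HBAII. Leiden clusters were made from all cells without these and the 13 named mitochondrial genes. The unnamed gene and other erythroid genes could still enter. With the unnamed gene, ALAS2, AHSP, HBBC and HBM also left out, log2 differences between highest and lowest cluster were 2.69, 3.83 and 1.83 at E60, E90 and E120, against 2.38, 3.95 and 2.03. Clusters are given by their leading genes, because marker genes of several classes led many E90 clusters. Leading genes were taken over the cells of all stages in a cluster. Among clusters of at least 20 cells, alpha globin in cells below 1% ranged from 45.2 to 239 CPM over 14 clusters at E60, from 63.5 to 996 CPM over 12 at E90 and from 14.5 to 62.3 CPM over 18 at E120. The highest E60 cluster, 223 cells led by KRT14, KRT35 and KRT85, was the only one there above 73.9 CPM. It held all 10 cells of E60 with 0.2% to 1% alpha globin, and these had 405 of its 513 alpha globin UMIs.

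At E90 the largest cluster, 3664 cells led by ACTG2 and, among others, the mitochondrial genes COX3 and CYTB, had the highest level, 996 CPM (980 to 1013). Thinned to 2000 UMIs, 54.1% of its cells had an alpha globin UMI, and it held 200 of the 308 rich cells and 519 of the 621 cells with 0.2% to 1% alpha globin. Its median mitochondrial share was 13.6% and its median depth 3523.5 UMIs. A cluster of 1307 cells led by KRT85, CCNB2 and NEK2, the latter genes of dividing cells, had 375 CPM, and 572 cells led by SERPINA12 and KRT10, a suprabasal keratin, had 223 CPM. The lowest levels were in 262 cells led by COCH, FNDC1 and NTN1, with 67.9 CPM (56.3 to 81.1), and in 203 cells led by genes without symbols, KRT71 and KRT27, with 63.5 CPM (51.3 to 77.8). The cluster of these 203 cells also held 137 E120 cells, which entered its leading genes. Of these 262 cells, 8.78% had an alpha globin UMI after thinning, at a median depth of 6793 UMIs, and no cell was rich. PDGFRA and FN1, genes of fibroblasts, are among the 10 leading genes of this cluster. Whether the alpha globin UMIs of this or any other cluster were made in its cells was not tested, so no share is read as expression. The shares of the E90 clusters differed beyond counting error at 2000 UMIs per cell, but depth before thinning and mitochondrial share (6.11% in these 262 cells) differed with them, and their part was not tested.

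Within clusters the E90 relation to mitochondrial RNA varied. In the largest cluster, cells below 1% had 762 CPM outside mitochondrial genes in the lowest mitochondrial bin and 1719 in the highest. In the cluster led by SERPINA12 the values were 110 (85.5 to 138) and 380 (322 to 445). In the cluster led by KRT85 they were 401 (364 to 441) and 433 (391 to 478), with overlapping intervals. The 4 E60 clusters and 6 E120 clusters of at least 500 such cells had overlapping intervals as well. The widest gap among them was in 811 E120 cells led by HS3ST2, ALOX15B and KRT35, with 45.3 (30.1 to 65.5) in the lowest bin and 24.2 (18.6 to 31.0) in the highest.

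Rich cells formed no cluster of their own. They lay in 9 of the 14 clusters at E60, 8 of 12 at E90 and 10 of 18 at E120. At E120, HBAII, HBAI and the unnamed gene led a cluster of 170 cells with a median mitochondrial share of 35.2%, in which alpha globin was 11489 CPM. That level came from 4 rich cells, and without them it was 34.7 CPM (21.8 to 52.6).

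**Figure D4:**
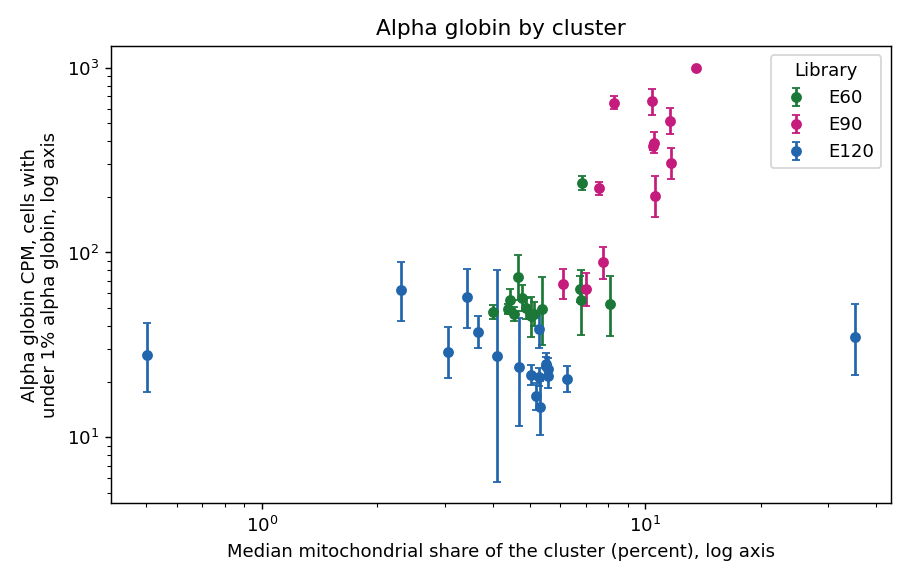
Alpha globin in cells with under 1% alpha globin (CPM, log axis) against the median mitochondrial share of the cluster (percent, log axis), 1 point per cluster of at least 20 cells in each library, with exact 95% intervals for counting error. Clusters of E90 spread from 63.5 to 996 CPM, and the cluster with the highest level also has the highest median mitochondrial share of E90, 13.6%. The E120 cluster at 35.2% mitochondrial share has 34.7 CPM.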

How the data were processed

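Libraries were made with 10x Genomics 3′ chemistry, version 3, per the labels' protocols. Cell Ranger 3.0.2 is named in the submitters' processing notes with no role. The aligner, genome build, annotation and filters are not given in the sources used here. The values deposited by the authors are natural log values of 1 plus counts scaled to 10000 per cell, as the values themselves show. The planned analysis assumed counts. UMI counts were recovered by inverting the log and dividing by the smallest value of each cell, and 100% of nonzero values came out whole within 0.01. This assumes that this smallest value is 1 UMI. The table holds 20676 cells, and all were used, whereas the design text states 19705.

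The genes and lists were chosen with earlier results of these data known. Sums are given with exact Poisson intervals and shares with exact binomial (Clopper-Pearson) intervals at 95%. Each stage was a single library, so no test was run. A difference was counted when log2 of CPM + 1 differed by at least 1. A count of 0 was given the limit of 3 counts. Cells were clustered with 2000 variable genes, 30 components, 20 neighbours and Leiden resolution 1 (leidenalg 0.10.2, igraph 0.11.9, scikit-learn 1.9.0, scipy 1.17.1, numpy 2.4.6, Python 3.11.15). Named are, per list, up to 4 genes with the highest CPM, defining erythroid genes at 0, the 5 genes most alike among genes in at least 5% of cells, and the genes leading the mitochondrial comparison. Counts of 16739 genes were simulated, with 200 genes of at least 50 CPM changed in the highest against the lowest mitochondrial bin (5 bins). Of these 200 folds, 100% came within 0.5 log2 at each stage. The counts were summed Poisson draws without spread between cells, so this checked the calculation only, and not data in which a few rich cells hold most UMIs. No sequence is shown.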

Additional observations from a re-analysis of the deposited data

Results flagged for a closer look

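Among cells below 1% alpha globin, the log2 difference between the highest and the lowest of 5 mitochondrial bins was 0.85 at E60 and 2.64 at E90, but -0.21 at E120. The direction differed between stages with 1 library each, and this difference was not tested. Depth also differed, with medians of 8579, 3714 and 13064 UMIs per cell, as did the way the skin was dissociated.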

How the results depend on the processing

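Values below moved by more than counting error, in the order E90 over E60, E120 over E90 and E120 over E60. The log2 stage difference of the alpha globin sum (1.87, -3.51, -1.64) was 1.98 and -3.61 in the first 2 over UMIs outside mitochondrial genes, -3.47 and -1.61 in the last 2 with 10 CPM added, and 1.35, -3.04 and -1.69 by median-of-ratios scaling. It was 2.35, -2.93 and -0.58 with equal weight per cell, 1.04, -3.36 and -2.32 under the filter of 1000 genes or more and 10% mitochondrial UMIs or less, and 2.65, -3.26 and -0.62 without the 6% of cells with most UMIs. Without rich cells, an alternative chosen after seeing the data, it was 3.43, -4.67 and -1.24. No setting turned a stage difference.

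For E60, E90 and E120, cells with an alpha globin UMI were 4.92%, 31.2% and 3.02% when thinned to 1000 UMIs, and 37.1%, 54.9% and 25.4% unthinned. The filter on genes and mitochondrial UMIs gave 29.6% at E90. Rich cells of E90 were 488 at 0.5% and 61 at 5%, and those of E120 were 10 at 5%. The log2 mitochondrial differences (-4.37, -1.31, -2.59) were -5.69, -1.95 and -2.40 between the outer 2 of 10 bins and -3.97, -0.99 and -1.99 after thinning, which left out no cell. In CPM over all genes they were -1.56 and -2.71 at E90 and E120, and within depth bins -1.60 and -2.09. Without rich cells they turned to 0.85 and 2.64 at E60 and E90 and were -0.21 at E120, and without cells at or above 0.2%, also chosen after seeing the data, they were 0.23, 2.20 and -0.21. These 2 settings leave out cells by alpha globin itself, the value compared. They describe which cells carried the negative differences, and the cause of the turn was not tested.

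HBAI was 81.1%, 76.7% and 80.8% of alpha globin without rich cells and 77.8% at E120 under the filter. The log2 difference between the highest and the lowest E90 cluster (3.95) was 3.60 at Leiden resolution 0.5 and 5.40 at 2. The log2 difference of ALAS2 at E90, over all UMIs (5.82), was 6.74 with rich cells taken at 5%. The cause of these shifts was not tested. No paired analysis was possible because each stage had 1 library. Depth limits single cells most at E90, and 1 library per stage limits every stage comparison.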
